A study of Homo sapiens with 4 samples.

Results

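Complement C3, 2 proteases of the first component and their regulators were followed as transcripts in HT-1080 cells, a human fibrosarcoma line. The 9 genes C3, CFB, CFI, C1R, C1S, SERPING1, CD46, CD55 and CD59 were taken by symbol from a table of 20323 genes, with the row of highest mean level where a symbol is repeated. They were chosen with earlier results of these libraries known, so their levels are a description, given with no test. There was 1 library of cells with a guide RNA against protein kinase A (sgPKA), 1 library with a guide against the RNA demethylase ALKBH5 (sgALKBH5) and 2 libraries with a control guide (sgNC, control 1 and control 2). All 4 came from polyadenylated RNA of the same line, grown in the same serum-containing medium. The labels name no PKA subunit, and do not say whether a guide line was 1 clone or a pool, or whether the controls were separate cultures. The spread between the controls may thus be technical.

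Complement is a cascade of plasma proteins that marks surfaces for removal and lysis. The classical pathway starts when the proteases C1r and C1s are activated on antibody-bound C1q. In the alternative pathway factor B joins cleaved C3 to form the convertase that cleaves more C3. Host cells restrain this with soluble inhibitors, such as factor I and the C1 inhibitor, and with the membrane proteins CD46, CD55 and CD59. The liver supplies most plasma complement, and fibroblasts and many tumour cells also make C3, factor B, C1r and C1s, more so under interleukins and interferons.

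The promoter windows of 3 genes are shown because their transcripts differed between libraries in different ways, with CFB and C1R highest in sgALKBH5, C1R lowest in sgPKA and CD46 highest in sgPKA. Each runs from 250 bases before to 50 bases after a RefSeq transcript start in GRCh38.p14, 5′ to 3′ on the gene's strand. Capitals mark every match, on either strand, to 4 motifs, namely the NF-kB motif, the interferon regulatory factor element GAAANNGAAA, the STAT element TTCNNNGAA and the core TGACG of the cAMP response element. The windows are CFB at chr6:31945845-31946144 on the plus strand, C1R at chr12:7092396-7092695 on the minus strand and CD46 at chr1:207751788-207752087 on the plus strand.
CFB: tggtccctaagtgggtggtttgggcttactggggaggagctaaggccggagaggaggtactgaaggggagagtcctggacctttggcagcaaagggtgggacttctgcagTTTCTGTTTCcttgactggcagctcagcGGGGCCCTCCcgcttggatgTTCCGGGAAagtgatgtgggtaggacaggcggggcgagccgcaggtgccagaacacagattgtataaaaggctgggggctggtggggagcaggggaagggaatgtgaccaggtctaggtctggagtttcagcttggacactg
C1R: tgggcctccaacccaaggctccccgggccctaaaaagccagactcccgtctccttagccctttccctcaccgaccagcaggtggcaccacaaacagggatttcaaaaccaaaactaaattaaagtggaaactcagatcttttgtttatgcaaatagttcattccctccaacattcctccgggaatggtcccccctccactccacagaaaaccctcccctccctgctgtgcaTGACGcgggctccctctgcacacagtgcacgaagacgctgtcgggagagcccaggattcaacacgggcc
CD46: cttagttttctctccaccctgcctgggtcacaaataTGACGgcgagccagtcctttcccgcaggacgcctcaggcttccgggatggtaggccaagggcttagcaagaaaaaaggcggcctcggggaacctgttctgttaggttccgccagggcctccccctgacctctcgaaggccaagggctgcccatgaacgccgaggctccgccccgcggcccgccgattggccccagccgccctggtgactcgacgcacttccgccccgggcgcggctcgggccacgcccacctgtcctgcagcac

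The CFB window held an interferon regulatory factor element 140 bases before the start, an NF-kB match 112 bases before it and a STAT element 92 bases before it. The C1R window held 1 cAMP element core 19 bases before the start, and the CD46 window held 1 such core 214 bases before it. For C1R and CD46 the table lists another start, and the other C1R window held a STAT element 86 bases before its start. Among 35116 RefSeq promoter windows of this length, 11.3% held the NF-kB motif, 3.57% the interferon regulatory factor element, 7.66% the STAT element and 24.6% the cAMP element core. These matches describe letters and do not show binding. Windows were matched for 6 of the 9 genes, with none for C3, C1S and SERPING1. Among the matched windows not shown, the CD55 window held 2 cAMP element cores, 147 and 70 bases before its start. A CD59 window held a STAT element 128 bases before its start, and the CFI window held no match. In TPM CD55 lay between the controls in both guide libraries. A link between motifs and levels was not tested.

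The summed counts were 14050867 in sgPKA and 25937347 in sgALKBH5, with 18469299 in control 1 and 18522402 in control 2. The genes ALKBH5 and PRKACA were checked first, although the labels name no PKA subunit. PRKACA, the catalytic alpha subunit of PKA, was at 10.6 TPM (a level per transcript length and library total) in sgPKA, with a control mean of 65.3 ± 6.76 TPM (SD, n = 2). ALKBH5 was at 37.5 TPM in sgALKBH5, with a control mean of 73.9 ± 8.91 TPM (SD, n = 2). All 6 mesenchymal markers had a mean of at least 1 TPM, with a summed level of 10028 TPM in sgPKA, 12341 TPM in sgALKBH5 and 11687 and 9032 TPM in the controls. VIM led them, at 7839 TPM in sgPKA, 7853 TPM in sgALKBH5 and 6730 and 6840 TPM in the controls. SPARC was at 634 TPM in sgPKA and 1742 TPM in sgALKBH5, with the controls at 2215 and 909 TPM. In normalised counts the median log2 fold change of the 6 was -0.93 in sgPKA and 0.25 in sgALKBH5. By TPM 1 lay above both controls and 3 below in sgPKA, where 50.3% and 26.9% of all genes did. In sgALKBH5 3 lay above and 1 below, where 39.1% and 27.5% did. The last was S100A4, named after its values were seen, which was 2-fold lower, as were 0.482% of all genes. None of 7 hepatocyte markers had a mean of 1 TPM, and ALB and EPCAM were listed at 0 throughout. The summed level of the hepatocyte markers was 0.768 TPM in sgPKA, 0.787 TPM in sgALKBH5 and 0.796 and 0.483 TPM in the controls. Of 7 leukocyte markers only CD68 and LYZ had a mean of 1 TPM, with a sum of 356 TPM in sgPKA, 221 TPM in sgALKBH5 and 258 and 445 TPM in the controls. Of 5 epithelial markers KRT8 and KRT18 did, with a sum of 478 TPM in sgPKA, 836 TPM in sgALKBH5 and 1392 and 1023 TPM in the controls. Both lay below both controls in sgPKA, where 26.9% of all genes did, and in sgALKBH5, where 27.5% did. KRT8 was 2-fold lower in sgPKA, as were 1.39% of all genes. It was there at 209 TPM, against 686 TPM (control 1) and 546 TPM (control 2). None of 4 endothelial markers reached 1 TPM. The part of these markers in the complement levels was not tested.

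Each guide had 1 library, so genes were counted by size. A gene was counted where log2(TPM + 1) was at least 1 above each control, or at least 1 below each, which is nominally 2-fold. The 11629 genes with a mean of 1 TPM or more were counted. In sgPKA 1.04% of those genes lay that far above both controls and 1.39% below, 2.43% in all, and 2 of the complement genes, C3 and C1S, were among the higher ones. In sgALKBH5 1.03% lay that far above and 0.482% below, 1.51% in all, and C3 and CFB were among the higher ones. None of the 9 lay that far below both controls in either library. The controls themselves were 2-fold apart for 6.41% of genes, among them C1R. Against control 2 alone the count over all genes was 668 in sgPKA and 974 in sgALKBH5, and against control 1 alone 1135 and 301, in place of 283 and 176 against both. Across all genes edgeR's quasi-likelihood test passed 0% of 13061 at an adjusted p of 0.05 for either guide, with 1184 genes in sgPKA and 369 in sgALKBH5 at an unadjusted p under 0.05. DESeq2 called 0.942% (123 genes) in sgPKA and 0.26% (34 genes) in sgALKBH5, and limma called none. Its unadjusted counts were 1116 and 338. With 1 residual degree of freedom these calls compare libraries, not genotypes.

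**Figure D1:**
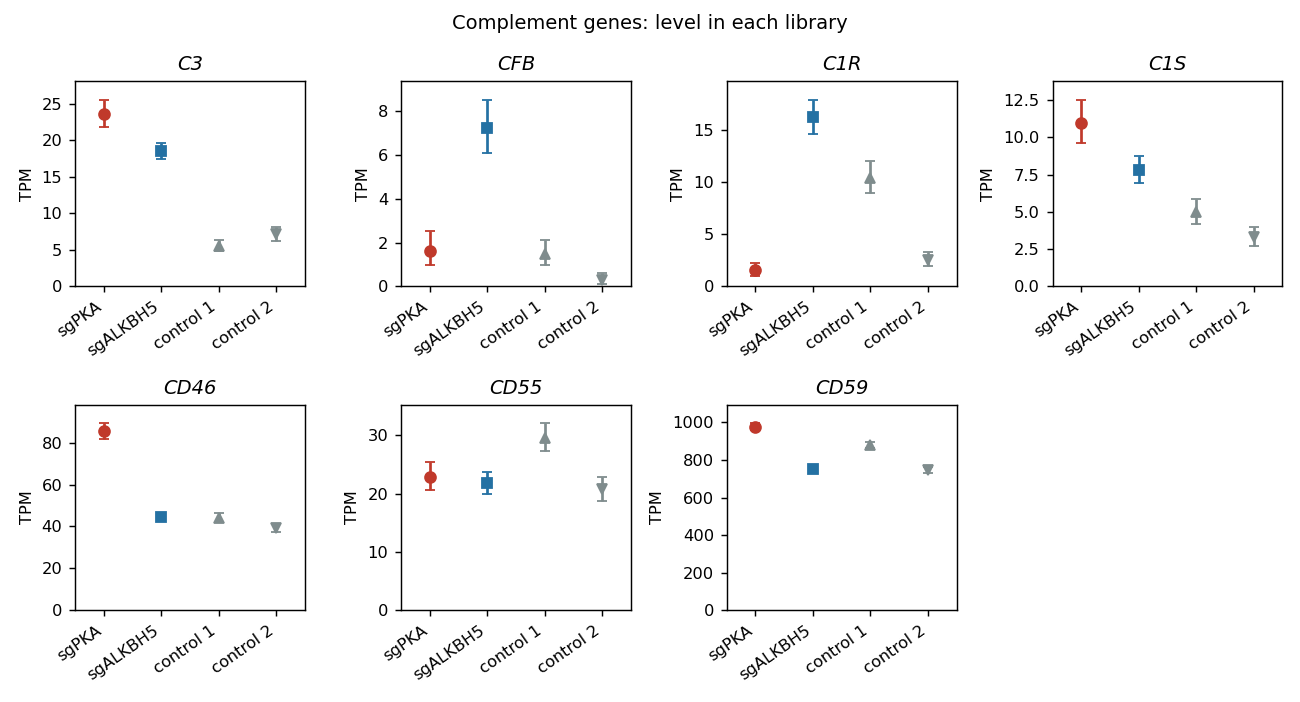
Level in TPM (vertical axes, from 0) of the 7 complement genes with a mean of at least 1 TPM, in each of the 4 libraries. Points are single libraries and bars are exact 95% Poisson counting intervals, so C3 can be seen at 23.6 and 18.5 TPM in sgPKA and sgALKBH5, above both controls.

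C3, the protein on which all complement pathways converge, was higher in both guide libraries than in both controls. The gene (ENSG00000125730) lies on chromosome 19 from 6677704 to 6720650 in GRCh38.p14. Its level was 23.6 TPM in sgPKA and 18.5 TPM in sgALKBH5, against 5.54 TPM (control 1) and 7.13 TPM (control 2). Neither guide library overlapped the controls in level. By TPM 50.3% of all genes lay above both controls in sgPKA and 39.1% in sgALKBH5. The share above both controls in both guide libraries at once was not counted. In bulk RNA more cells that express a gene and more RNA per cell cannot be told apart. The fold over the control mean of 6.33 ± 1.13 TPM (SD, n = 2) was 3.73 in sgPKA and 2.92 in sgALKBH5. These levels rest on 615 counts in sgPKA, 1089 in sgALKBH5 and 220 and 248 in the controls. The exact 95% Poisson interval was 21.8 to 25.6 TPM in sgPKA and 17.4 to 19.6 TPM in sgALKBH5, against 4.83 to 6.32 TPM in control 1 and 6.27 to 8.08 TPM in control 2. Such intervals cover counting error only.

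The order of the 2 guide libraries depended on the scale. In counts normalised by TMM (the trimmed mean of M-values), C3 stood at 41.1 CPM (counts scaled to library size) in sgPKA and 42.8 in sgALKBH5, against 12.1 in control 1 and 13.8 in control 2. The log2 fold change of these counts was 1.66 in sgPKA and 1.72 in sgALKBH5. The deposited TPM of C3 per raw CPM was 0.540 in sgPKA and 0.533 in control 2, but 0.440 in sgALKBH5 and 0.465 in control 1. The length correction applied to C3 thus differed between libraries. Over 13061 genes the median log2 difference in sgPKA was 0.111 in TPM and -0.03 in normalised counts, and in sgALKBH5 it was 0.04 and -0.015.

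Of the 11629 genes, 12 stood above C3 in the difference of log2(TPM + 1) between sgPKA and the control mean, since C3 ranked 13 from the top. In sgALKBH5 it ranked 124 from the top. CFB ranked 22 from the top in sgALKBH5 and 2659 in sgPKA. These ranks place the genes in each library's own distribution and are not tests.

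**Figure D2:**
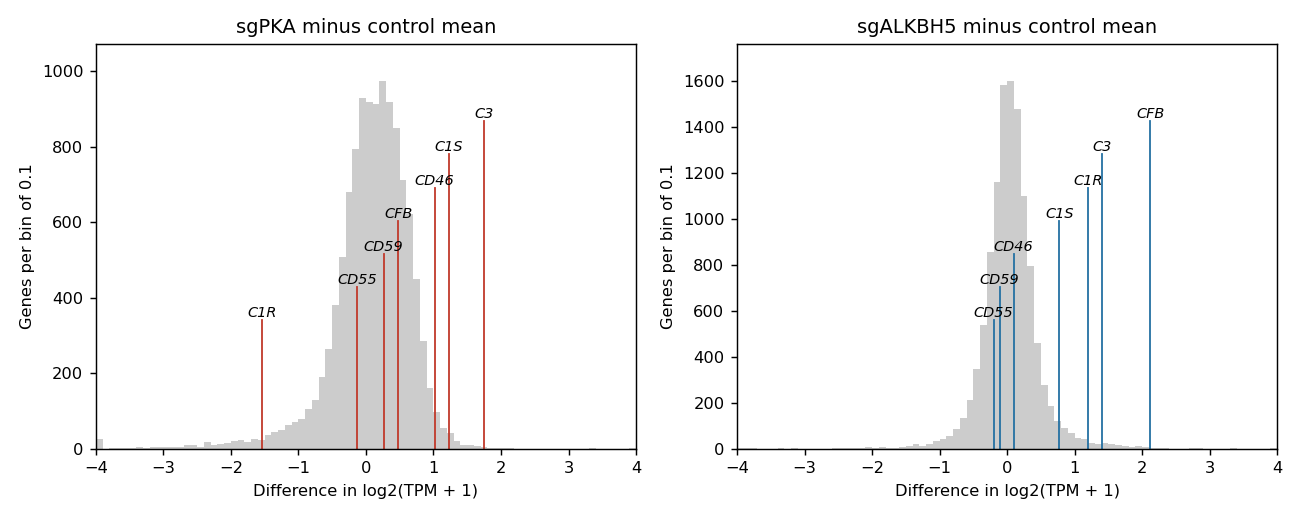
Histogram of the difference in log2(TPM + 1) from the control mean over 11629 genes, in bins of 0.1, for sgPKA (left) and sgALKBH5 (right), with differences beyond 4 placed in the end bins. Vertical lines mark the 7 measured complement genes, with C3 at 1.75 in sgPKA and 1.41 in sgALKBH5, and C1R at -1.54 and 1.20.

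CFB, the protease of the alternative pathway convertase, was higher in sgALKBH5. The gene (ENSG00000243649) spans 31946095 to 31952084 on chromosome 6. Its level was 7.25 TPM in sgALKBH5 and 1.64 TPM in sgPKA, against 1.48 TPM (control 1) and 0.310 TPM (control 2). The sgALKBH5 level was 4.90 times that of control 1 and 23.4 times that of control 2. In normalised counts the log2 fold change in sgALKBH5 was 1.73 against control 1 and 3.41 against control 2, which is smaller than in TPM, and the TPM of CFB per raw CPM ran from 0.718 in control 2 to 1.296 in sgALKBH5. Only 8 counts were behind the level in control 2, with an exact interval of 0.134 to 0.611 TPM, so the larger fold is imprecise. The sgALKBH5 level rests on 145 counts, with an interval of 6.11 to 8.53 TPM. In sgPKA the 20 counts gave an interval of 1.001 to 2.53 TPM, which overlaps that of control 1 at 0.998 to 2.11 TPM. The log2 fold change of normalised counts in sgPKA was -0.28 against control 1 and 1.40 against control 2, so its direction turned with the control.

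Both C3 and CFB thus passed the 2-fold bound in sgALKBH5, and C3 without CFB in sgPKA. The ratio of CFB to C3 in TPM was 0.0693 in sgPKA and 0.392 in sgALKBH5, against 0.267 in control 1 and 0.0434 in control 2. In raw counts, which compare libraries but not the 2 genes, the ratio was 0.0325 in sgPKA and 0.133 in sgALKBH5, against 0.136 in control 1 and 0.0323 in control 2. The exact 95% intervals of that ratio were 0.0197 to 0.0507 in sgPKA and 0.111 to 0.159 in sgALKBH5, against 0.0899 to 0.200 in control 1 and 0.0138 to 0.0646 in control 2. In counts the ratio thus did not separate sgPKA from control 2 or sgALKBH5 from control 1. A second row under the symbol CFB, ENSG00000244255, which spans C2 and CFB, had 0 counts in all libraries.

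C1R and C1S encode the paired proteases of the C1 complex and lie 9.19 kb apart on chromosome 12. Their levels did not follow each other across the libraries. C1S (ENSG00000182326, from 7060718 to 7071032) was at 11.0 TPM in sgPKA and 7.78 TPM in sgALKBH5, against 4.97 TPM (control 1) and 3.30 TPM (control 2). Both guide libraries lay above both controls, as 50.3% of all genes did in sgPKA and 39.1% in sgALKBH5. In sgPKA the difference of log2(TPM + 1) was 1.007 from control 1 and 1.48 from control 2, just past the 2-fold bound. In normalised counts it was 0.96 against control 1, just short of it. In sgALKBH5 the log2 fold change of normalised counts was 0.56 against control 1 and 1.02 against control 2.

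C1R (ENSG00000159403, from 7080219 to 7092445) was at 1.56 TPM in sgPKA and 16.2 TPM in sgALKBH5, against 10.4 TPM (control 1) and 2.56 TPM (control 2). The sgPKA library was lowest and the sgALKBH5 library highest of the 4. The controls themselves differed 4.06-fold, with a mean of 6.47 ± 5.53 TPM (SD, n = 2). The log2 fold change of normalised counts in sgPKA was -2.36 against control 1 but -0.80 against control 2. In sgALKBH5 it was 0.66 against control 1 and 2.22 against control 2. There were 27 counts in sgPKA, with an interval of 1.03 to 2.28 TPM that overlaps the 1.94 to 3.31 TPM of control 2. Against control 2 the counting intervals thus do not separate sgPKA. In GENCODE 29 the annotated C1R gene overlaps its paralogue C1RL on the same strand. C1R had 391.8 counts in sgALKBH5 and 176.55 in control 1, not whole numbers. C1RL was fractional in the same libraries, at 793.2 and 433.45 counts. In sgPKA and control 2 the counts of both genes were whole. The level of C1R is uncertain where reads were shared.

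The TPM ratio of C1R to C1S was 0.142 in sgPKA, with an exact 95% counting interval of 0.0917 to 0.213. It was 2.08 in sgALKBH5, with an interval of 1.78 to 2.43, against 2.09 in control 1 (1.66 to 2.63) and 0.775 in control 2 (0.551 to 1.08). In control 1 and sgALKBH5 C1R transcripts thus outnumbered C1S transcripts per length, and in sgPKA the reverse held. Control 1 and sgALKBH5 are also the libraries with fractional C1R counts, an uncertainty that the intervals do not cover. The intervals of sgALKBH5 and control 1 overlapped, while those of sgPKA and control 2 lay apart from them and from each other. With 2 controls this far apart, the sgPKA ratio has no replicate check.

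**Figure D3:**
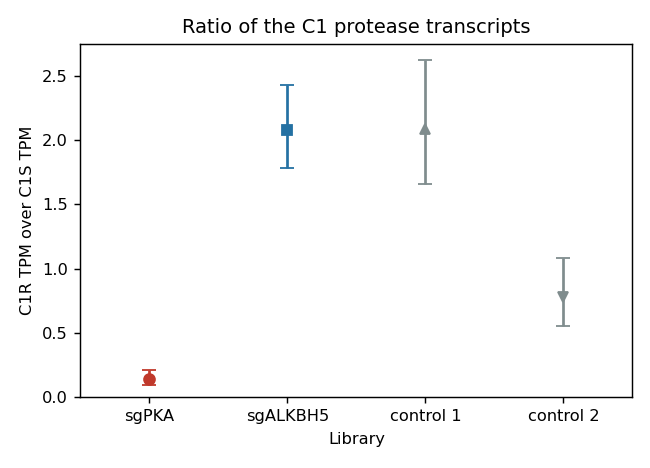
Ratio of C1R to C1S in TPM (vertical axis, from 0) in each library, with exact 95% counting intervals. The ratio is 0.142 in sgPKA, 2.08 in sgALKBH5, 2.09 in control 1 and 0.775 in control 2.

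The 2 secreted inhibitors were at or near 0. CFI (ENSG00000205403, chromosome 4 from 109730982 to 109801999), the protease that inactivates C3b and C4b, had 0 counts in sgPKA, sgALKBH5 and control 2 and 2 counts in control 1. SERPING1 (ENSG00000149131, chromosome 11 from 57597685 to 57614848), the inhibitor of C1r and C1s, had 0 counts in sgPKA, sgALKBH5 and control 1 and 1 count in control 2. A count of 0 allows up to 3 counts by a one-sided limit (the two-sided Poisson interval used elsewhere ends at 3.69), or 0.214 CPM in sgPKA and 0.116 in sgALKBH5, against 0.162 in either control. Both genes were under the level minimum, so no fold is given. CFI had a second row, ENSG00000285330, with 0 counts throughout.

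Of the membrane regulators, CD46 was higher in sgPKA, while CD55 and CD59 stayed closer to the controls. CD46 (ENSG00000117335), a cofactor for the cleavage of C3b and C4b by factor I, lies on chromosome 1 from 207752038 to 207795516. It was at 85.4 TPM in sgPKA and 44.6 TPM in sgALKBH5, against 44.2 TPM (control 1) and 39.2 TPM (control 2). Only the sgPKA library stood apart, at 2.05 times the control mean of 41.7 ± 3.54 TPM (SD, n = 2). By the 2-fold rule CD46 fell just short in sgPKA, with a difference of log2(TPM + 1) of 0.93 from control 1 and 1.103 from control 2. In normalised counts the log2 fold change was 0.84 in sgPKA, with 0.80 and 0.88 against the single controls, and 0.035 in sgALKBH5. Counting error was small for CD46, at 2025 counts in sgPKA and 1975 in sgALKBH5, against 1414 and 1324 in the controls.

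CD55 (ENSG00000196352, chromosome 1 from 207321678 to 207360966) encodes decay-accelerating factor, which dismantles C3 convertases. Its gene lies 391 kb from CD46 in the same cluster of complement regulators. It was at 22.9 TPM in sgPKA and 21.8 TPM in sgALKBH5, against 29.6 TPM (control 1) and 20.7 TPM (control 2). In TPM both guide libraries lay between the controls, within the spread of 25.1 ± 6.26 TPM (SD, n = 2). In normalised counts both lay below the 2 controls, by log2 fold changes from the control mean of -0.32 in sgPKA and -0.48 in sgALKBH5, and only -0.06 and -0.22 against control 2. The neighbouring genes CD46 and CD55 therefore differed in sgPKA, with a TPM ratio of CD46 to CD55 of 3.73 in sgPKA and 2.05 in sgALKBH5, against 1.496 in control 1 and 1.89 in control 2.

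CD59 (ENSG00000085063, chromosome 11 from 33703010 to 33736479), which blocks assembly of the membrane attack complex, was the most abundant of the 9 genes in every library. It was at 976 TPM in sgPKA and 753 TPM in sgALKBH5, against 882 TPM (control 1) and 746 TPM (control 2). The sgALKBH5 level lay between the controls in TPM and below both in normalised counts, with log2 fold changes of -0.22 and -0.11 against them. The sgPKA level lay above both in TPM by a difference of 0.26 in log2(TPM + 1) from the control mean, beside a median of 0.111 over all genes tested, and by a log2 fold change of 0.10 in normalised counts. A second row under the symbol, ENSG00000284969, overlaps CD59 on the same strand and held between 3.80% and 6.27% of the counts of the 2 rows together.

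**Figure D4:**
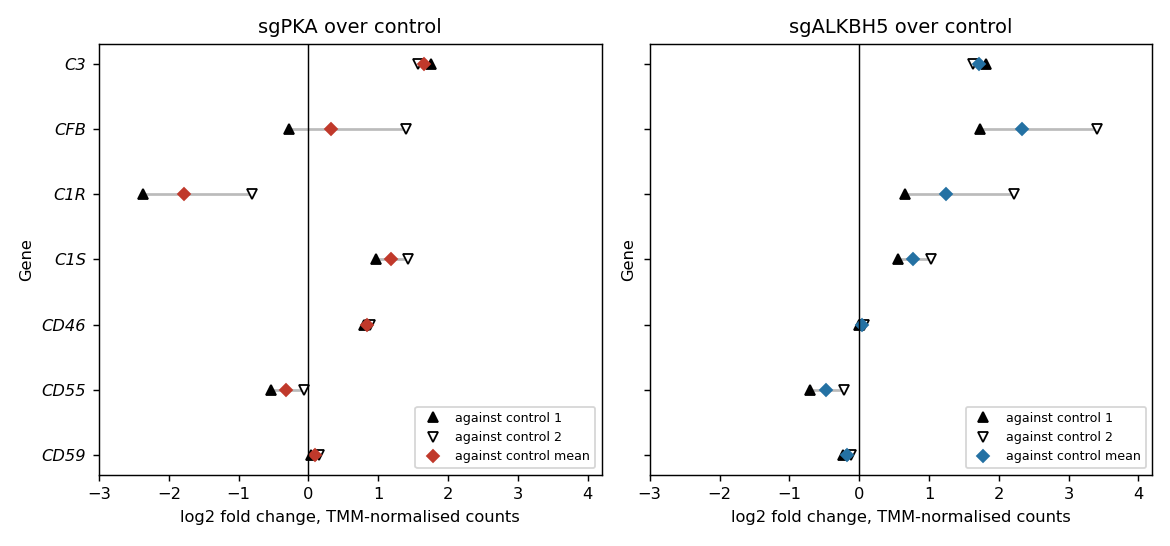
Log2 fold change of TMM-normalised counts (horizontal axis) of 7 complement genes in sgPKA (left) and sgALKBH5 (right) against control 1, control 2 and their mean. C3 lies at 1.76 and 1.57 against the single controls in sgPKA and at 1.81 and 1.63 in sgALKBH5, while CFB and C1R span wide ranges between the controls.

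By TPM, 5 of the 7 measured genes lay above both controls in sgPKA (C3, CFB, C1S, CD46 and CD59), where 50.3% of all genes did, and C1R lay below both, where 26.9% did. In sgALKBH5 5 of 7 lay above both (C3, CFB, C1R, C1S and CD46), where 39.1% of all genes did, and none below both, where 27.5% did. In normalised counts CFB in sgPKA and CD46 in sgALKBH5 were not above both, with log2 fold changes of -0.28 and -0.004 against control 1. There CD55 in both guide libraries and CD59 in sgALKBH5 lay below both controls. In sgPKA the order of levels was CD59, CD46, C3, CD55, C1S, CFB and C1R, of which C3 and CD55 had overlapping counting intervals, as did CFB and C1R. In sgALKBH5 it was CD59, CD46, CD55, C3, C1R, C1S and CFB, of which C3 and C1R overlapped, as did C1S and CFB. In control 1 it was CD59, CD46, CD55, C1R, C3, C1S and CFB, and in control 2 CD59, CD46, CD55, C3, C1S, C1R and CFB. In the controls C3 and C1S overlapped in control 1, and C1S and C1R in control 2.

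Most other complement genes were silent or near the detection limit. Of 59 genes of the pathway, the 9 included, 14 had no counts in any library and 15 had a mean of at least 1 TPM. None of the 7 genes of the terminal pathway, which builds the membrane attack complex, reached that level. C5 was at 0.450 TPM in sgPKA and 0.011 TPM in sgALKBH5, with the controls at 0.029 and 0.165 TPM, and C8G at 0.309 TPM in sgPKA and listed at 0 elsewhere. The C1q chain genes were also close to 0, as were the lectin pathway protease MASP2, C2, CFD, which activates factor B, and CFP, which stabilises the convertase. The membrane regulator SUSD4 had a mean of 0.526 TPM.

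The abundant genes outside the 9 showed no 2-fold difference from both controls in either guide library. CLU, a secreted chaperone that inhibits terminal complex assembly, was at 310 TPM in sgPKA and 204 TPM in sgALKBH5, with the controls at 276 and 232 TPM. Its log2 fold change in normalised counts was -0.005 in sgPKA and -0.44 in sgALKBH5. C1QBP, a mainly mitochondrial protein that binds C1q, was at 838 TPM in sgPKA and 733 TPM in sgALKBH5, with the controls at 817 and 747 TPM, and log2 fold changes in normalised counts of -0.10 and -0.17. C1RL was at 18.6 TPM in sgPKA and 25.03 TPM in sgALKBH5, with the controls at 19.5 and 10.4 TPM. The C3a receptor gene C3AR1 was at 7.57 TPM in sgPKA and 6.06 TPM in sgALKBH5, with the controls at 6.22 and 5.08 TPM. COLEC11, a collectin of the lectin pathway, was at 2.07 TPM in sgPKA and 1.03 TPM in sgALKBH5, against 1.02 and 1.31 TPM, on 14 to 22 counts. CSMD1, a membrane inhibitor, stayed between 1.16 and 1.56 TPM in the 4 libraries.

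Over the 22 pathway genes that passed the filter on counts, the median log2 fold change was 0.21 in sgPKA, where it was -0.03 over all 13061 genes. In sgALKBH5 it was -0.15, against -0.015 over all genes, but -0.075 without control 1 and -0.022 without control 2. Control 2 against control 1 gave -0.03. Over the 15 of these genes outside the 9, the median was 0.19 in sgPKA and -0.178 in sgALKBH5. For control 2 against control 1 it was 0.254. There the controls differed from each other by more than either guide library did from the control mean. With counts below 3 set to 3, the medians of the guide libraries were the same to 2 decimals. The filter kept a gene that passed in any single library. MASP2 entered on 8 counts in sgPKA, with 2 in sgALKBH5 and 1 and 4 in the controls. Another gene entered on 39 counts in control 1, with 0 elsewhere. The medians carry this selection, which the floor at 3 does not remove. In the 50 genes outside the 9, 5 of 8 at a mean of 1 TPM lay above both controls in sgPKA and 1 below, where 50.3% and 26.9% of all genes did. In sgALKBH5 1 lay above and 2 below, where 39.1% and 27.5% did.

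**Figure D5:**
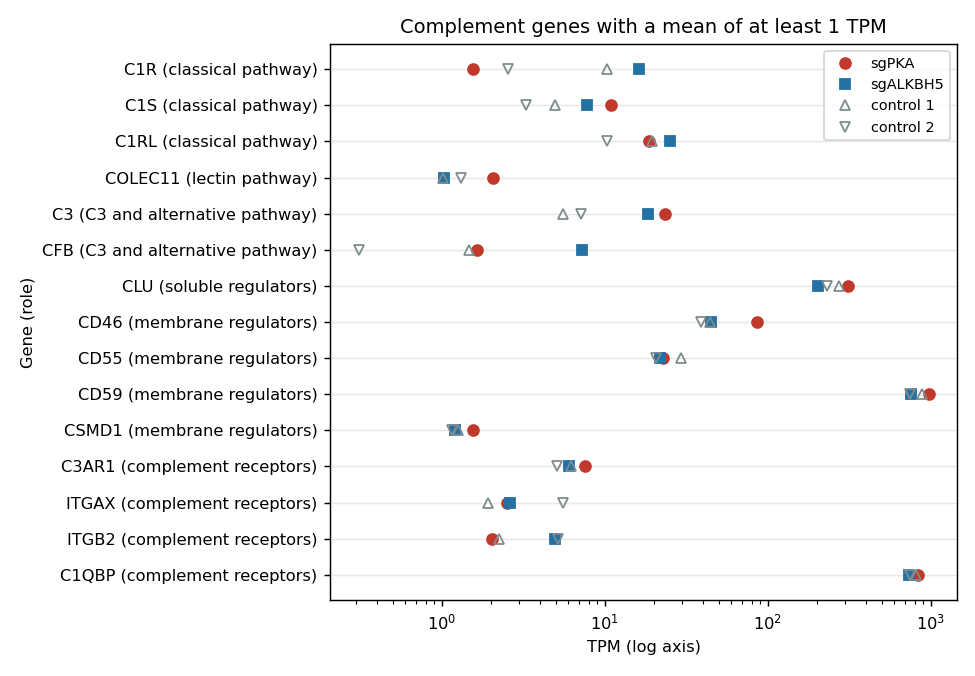
TPM on a log axis of the 15 complement genes with a mean of at least 1 TPM in each library, grouped by role. C3 has both guide libraries to the right of both controls, and CD59 and C1QBP lie near the top of the scale in all libraries.

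Acute phase genes and known inducers of C3 and CFB were set beside these levels, and their part in the complement values was not tested. IL1B, whose product induces C3 and CFB in many cell types, was at 1331 TPM in sgPKA and 933 TPM in sgALKBH5, against 432 TPM (control 1) and 708 TPM (control 2). Both guide libraries lay above both controls for IL1B. RELA, an NF-kB subunit, was at 115 TPM in sgPKA and 138 TPM in sgALKBH5, with the controls at 117 and 93.5 TPM. Of the 22 cytokines and factors, 17 had a mean of 1 TPM, of which 6 lay above both controls and 5 below in sgPKA, where 50.3% and 26.9% of all genes did. In sgALKBH5 12 lay above and 2 below, where 39.1% and 27.5% did. IL6, named after its values were seen, was the 1 of them that was 2-fold from both controls. It was higher in sgALKBH5, as were 1.03% of all genes. Its level was 31.1 TPM in sgALKBH5 and 1.01 TPM in sgPKA, against 13.4 TPM in control 1 and listed at 0 in control 2. These levels rest on 434, 7, 109 and 0 counts, so the controls lay far apart.

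SAA1, serum amyloid A, was at 3.41 TPM in sgPKA and 30.8 TPM in sgALKBH5, with the controls at 10.6 and 6.75 TPM. It has near-identical copies, so its level is uncertain. PTX3, a pattern recognition protein that binds C1q, was at 44.0 TPM in sgPKA and 96.4 TPM in sgALKBH5, with the controls at 127 and 75.5 TPM. All 4 acute phase genes with a mean of 1 TPM lay below both controls in sgPKA, as did 26.9% of all genes. None did so by 2-fold, where 1.39% of all genes did. In sgALKBH5 3 of 4 lay above both, as did 39.1% of all genes. SAA1 was 1 of them and lay above by 2-fold, as did 1.03% of all genes. SAA1 and a near-identical copy are both among the 4. Their counts were fractional in sgALKBH5, at 222.29 and 95.71, so reads may be shared between them.

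The transcripts with a profile most like that of C3 were found by the root mean square difference of centred log2(TPM + 1) over the 4 libraries, among 11515 genes. They were HOOK3 at 0.27, SMIM11B at 0.29, NPIPA8 at 0.31, HSD17B6 at 0.32 and IL37 at 0.32, where the median of all genes was 0.79. HOOK3 was at 9.64 TPM in sgPKA and 5.14 TPM in sgALKBH5, with the controls at 2.33 and 2.98 TPM. HSD17B6 was low, between 1.165 and 3.76 TPM in the 4 libraries. IL37 was at 2.29 TPM in sgPKA and 2.31 TPM in sgALKBH5, with the controls at 0.234 and 1.009 TPM. It thus met the minimum mean of 1 TPM through the guide libraries. SMIM11B and NPIPA8 belong to families of near-identical copies, so their levels are uncertain. With 4 libraries such likeness is a description only. Of the other measured complement genes C1S was nearest to C3, at 0.40, followed by CD46 at 0.58, and C1R was farthest, at 1.505.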

How the data were processed

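Messenger RNA of 4 HT-1080 libraries was sequenced. RSEM, StringTie 1.3.1, HISAT2 2.1.0, fastp 0.18.0 and the build GRCh38.p14 are listed in the submitters' processing notes, with no role for each. The annotation release and the use of strand are not given in the sources used here. Expected counts and TPM per gene were deposited. The deposited expected counts are not normalised, and 15.3% to 17.1% of those above 0 are fractional. Each deposited TPM column has the same sum. The 9 genes, the gene lists and the tests were chosen with earlier results of these data known. Some genes of the lists are not reported here.

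Counts were rounded and fitted with edgeR 4.0.16 in R 4.3.3 (TMM, filterByExpr, 3 groups, 1 residual degree of freedom from the controls, Benjamini-Hochberg adjustment), which left 13061 genes. DESeq2 1.42.0 and limma 3.58.1 were alternatives. The procedure was tested on simulated data. Log2 fold changes compare TMM-normalised CPM, plus 0.1, with the control mean. Differences in log2(TPM + 1) understate changes of low genes. Intervals are exact Poisson or binomial intervals at 95% and cover counting error only. Besides the 9 genes, PRKACA and ALKBH5, the text names for each list the 2 genes with the highest mean TPM and those at least 2-fold from both controls, and the 5 genes nearest to C3 in profile. Positions and promoters are from RefSeq for GRCh38.p14, joined by symbol. Other settings were another pseudocount, other TPM minimums, rescaled TPM and each control left out.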

Additional observations from a re-analysis of the deposited data

Results flagged for a closer look

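The second row under the symbol CD59, ENSG00000284969, was not used for the levels above. In TPM it lay above both controls in each guide library, as did 50.3% of all genes in sgPKA and 39.1% in sgALKBH5. It was at 99.2 TPM in sgPKA and 104.6 TPM in sgALKBH5, against 75.8 TPM (control 1) and 71.0 TPM (control 2). It held 4.55% of the counts of both rows in sgPKA and 6.27% in sgALKBH5, against 3.80% in control 1 and 4.19% in control 2. Reads of overlapping genes can be split between the rows, and the part of that in these values was not tested.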

How the results depend on the processing

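No paired analysis was possible because only the controls carry replicate numbers. With 1 control left out no residual degree of freedom remains, so edgeR was not run that way. DESeq2 called 123 genes in sgPKA and 34 in sgALKBH5, where edgeR called 0, also with other size factors, without a filter and with 3 libraries. With log2(TPM + 0.1) 605 genes in sgPKA and 288 in sgALKBH5 were at least 2-fold from both controls, in place of 283 and 176, and with a minimum of 5 TPM 100 in sgALKBH5. With 1 control left out the count ran from 668 to 1135 in sgPKA and from 301 to 974 in sgALKBH5. Of the 9 complement genes, 7 had a mean of 1 TPM and could pass. In each guide library 2 passed, where 2.43% of all genes did in sgPKA and 1.51% in sgALKBH5. With TPM rescaled by the TMM factors 1 passed in sgPKA, since C1S was lost, and with a minimum of 5 TPM 1 passed in sgALKBH5, since CFB was lost. With control 1 left out 4 passed in sgPKA and 4 in sgALKBH5, beside 668 and 974 of all genes. With control 2 left out 3 passed in sgPKA, 2 higher and 1 lower, beside 1135 of all genes. In sgALKBH5 2 passed, beside 301. With rescaled TPM the split over all genes in sgPKA was 73 higher and 198 lower, in place of 121 and 162. The median of the pathway list was 0.274 in sgPKA and -0.022 in sgALKBH5 on the scale of log2(TPM + 1), and with 1 control left out it ran from 0.162 to 0.264 and from -0.075 to -0.022. Of 58 alternative values of the log2 fold changes of single genes, all from the same guide libraries and so no replicate check, 56 kept their sign. The exceptions were CFB in sgPKA and CD46 in sgALKBH5, both against control 1 alone. The log2 fold change of C3 ran from 1.57 to 1.76 in sgPKA and from 1.41 to 1.81 in sgALKBH5. Summing both rows of CD59, an alternative chosen after seeing the data, kept the direction. The cause of these shifts was not tested.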

Other observations

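The summed level of the membrane regulators CD46, CD55 and CD59 was 1084 TPM in sgPKA and 819 TPM in sgALKBH5, against 956 TPM (control 1) and 806 TPM (control 2). CD59 made up 90.0% of that sum in sgPKA and 91.9% in sgALKBH5, against 92.3% in control 1 and 92.6% in control 2. The ratio of CD59 to CD46 was 11.4 in sgPKA and 16.9 in sgALKBH5, against 19.9 in control 1 and 19.0 in control 2.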
